A study of Mus musculus with 4 samples.

Results

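The 10 genes described here are *Trp53*, which codes for the transcription factor p53, and 9 genes of its stress response: *Mdm2*, *Cdkn1a*, *Ccng1*, *Bax*, *Bbc3*, *Zmat3*, *Phlda3*, *Trp53inp1* and *Sesn2*. They were chosen by name from the known pathway, with earlier results of these data in view, out of 37310 genes in a count table. RNA was sequenced from HATX mouse embryonic stem cells (mESCs), a line of mixed genomic background that carries an inducible *Xist* transgene on its X chromosome and that the study describes as haploid. The WT group was 2 libraries of that line, and the other group was 2 libraries of clone 2 of a *Spen* KO made in it. Spen is an RNA-binding repressor that *Xist* requires to silence the X chromosome. Both groups were grown in serum with LIF, and no treatment is given for either, so neither doxycycline nor a DNA-damaging agent is part of the contrast as labelled. The comparison asks what p53 and its targets did in cells labelled as lacking Spen, without applied stress. The KO group is 1 clone, and other differences between that clone and the parent line cannot be told apart from the loss of *Spen*. The labels do not say that the 2 libraries of a group came from separate cultures, so p-values measure only the spread between these libraries.

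p53 is held at a low level in unstressed cells by the ubiquitin ligase Mdm2. DNA damage and other stress free p53 from Mdm2, and p53 then binds response elements near its targets and activates them. The targets stop the cell cycle, start apoptosis, adjust metabolism, or, as *Mdm2* itself does, turn p53 off again. In mESCs p53 is known to be abundant and to oppose self-renewal after DNA damage. p53 is controlled chiefly through the protein, and the protein, its modification and its binding to DNA were not measured in these libraries.

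The consensus p53 response element, 2 adjoining copies of a 10-base site, was searched on both strands from 3000 bases before to 5000 bases after the start of each gene. An exact match was found in 1 of 10 members, *Zmat3*, and in 28 of 22380 protein-coding genes (0.125%). With up to 1 mismatch, a search added after the data were seen, 4 of 10 members held an element, against 544 protein-coding genes (2.43%). The sequences are shown as a description from the letters of the genome and not from expression. The members were chosen as known p53 targets, so their share of matches is no independent tie to p53. Distances are from the middle of the element, and each reads 5′ to 3′ on the strand of its gene in build mm9, and capitals mark the invariant C and G of each copy where they matched.
*Zmat3*, intron, 1337 bases after the gene start, chr3:32263253-32263272, minus strand, 0 mismatches: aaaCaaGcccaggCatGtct
*Cdkn1a*, 41 bases before the first annotated start, chr17:29227873-29227892, plus strand, 1 mismatch: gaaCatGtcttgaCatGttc
*Ccng1*, intron, 365 bases after the gene start, chr11:40568438-40568457, minus strand, 1 mismatch: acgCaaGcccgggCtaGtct
*Ccng1*, 161 bases before the gene start, chr11:40568964-40568983, minus strand, 1 mismatch: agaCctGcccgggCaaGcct
*Mdm2*, 922 bases before the gene start, chr10:117148726-117148745, minus strand, 1 mismatch: gggCaattccgggCaaGtcc

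These distances depend on the transcript. The *Cdkn1a* element lay 41 bases before the first annotated start and 2834 and 7269 bases before the starts of the other transcripts. The *Mdm2* element lay 922 to 20160 bases before the starts of its transcripts. Both *Ccng1* elements lay before the start of its second, non-coding transcript, by 1008 and 1534 bases, and the *Zmat3* element 1119 to 1337 bases after the starts of its transcripts. No element at up to 1 mismatch was found in this window for *Trp53*, *Bax*, *Bbc3*, *Phlda3*, *Trp53inp1* or *Sesn2*, which says only that such letters are not there. A match is a description of sequence, and whether p53 bound it was not measured.

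Total counts ran from 36667685 to 61908422 per library, with the WT libraries the shallower ones, and 21850 to 22591 genes had at least 1 count. Normalized counts are read counts divided by the DESeq2 size factor of the library, and adjusted p-values are Benjamini-Hochberg values over all genes tested. *Spen* itself stood at 3716 and 3047 normalized counts in WT against 7797 and 6242 in the other group (log2 fold change 1.05 ± 0.21 (SE), adjusted p = 7.7e-06). A gene-level count does not show whether coding sequence was deleted, so these counts alone give no check of the KO label, and the libraries are called KO-labelled below. ES cell markers were present in all libraries, and 2 of 7 (*Zfp42* and *Dppa5a*) were higher in the KO-labelled ones, while the other 5 did not pass. That share of 28.6% was near the 27% of genes averaging at least 500 normalized counts, beside 16.4% of all genes tested. *Zfp42* lost its call without any one library (adjusted p from 0.118 to 0.167). Neither of the pair passed with chromosome medians removed (adjusted p = 0.255 and 0.0833), and *Esrrb* then did (adjusted p = 7.85e-05). *Sox2*, at 0.32 (adjusted p = 0.401), was at 0.61 without WT replicate 2 (adjusted p = 9.01e-07) and at 0.094 without WT replicate 1. Their summed normalized counts were 2.169e+05 and 2.1035e+05 in WT, against 2.1875e+05 and 2.2981e+05 with the KO label. The 7 fibroblast markers together summed to 172 and 192 in WT and to 421 and 485 in the KO-labelled libraries, mostly through *Thy1*. Without *Thy1* they summed to 54.4 and 54.5 in WT and to 65.3 and 71.2 in the KO-labelled libraries, with *Postn* and *Lum* at or near 0 in every library. *Thy1* was higher at a log2 fold change of 1.59 (adjusted p = 1.62e-10), and *Col1a1* at 0.98, *Col1a2* at -1.19 and *Col3a1* at -0.25 did not pass (adjusted p = 0.188, 0.452 and 0.898). Whether any fibroblasts were present, and what part they would have in the results below, was not tested. In such bulk libraries, fewer cells that make an RNA and less of it per cell cannot be told apart.

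*Trp53* and its targets were all transcribed in these cells, for which no stress treatment is given, over a 31.6-fold range of normalized counts per kilobase of exon. Exon length joined the exons of all annotated transcripts of a gene, used in these cells or not. The range and the order between genes depend on that length. By this measure *Bax* had the highest mean level over the 4 libraries (9409 per kilobase), followed by *Trp53* (6672) and *Ccng1* (3210). Levels per kilobase then fell through *Trp53inp1* (1807), *Sesn2* (1498), *Phlda3* (1120), *Mdm2* (974), *Zmat3* (798) and *Cdkn1a* (498) to *Bbc3* (298). The gene for the pro-apoptotic effector Bax was thus read far more than that for Puma (*Bbc3*), the upstream BH3-only killer. The order was the same in both groups with 1 exception. *Sesn2* lay above *Trp53inp1* in the WT libraries (1612 and 1781 against 1586 and 1601 per kilobase), where the nearest libraries differed little, and below it in the KO-labelled ones (1310 and 1288 against 2060 and 1981).

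**Figure D1:**
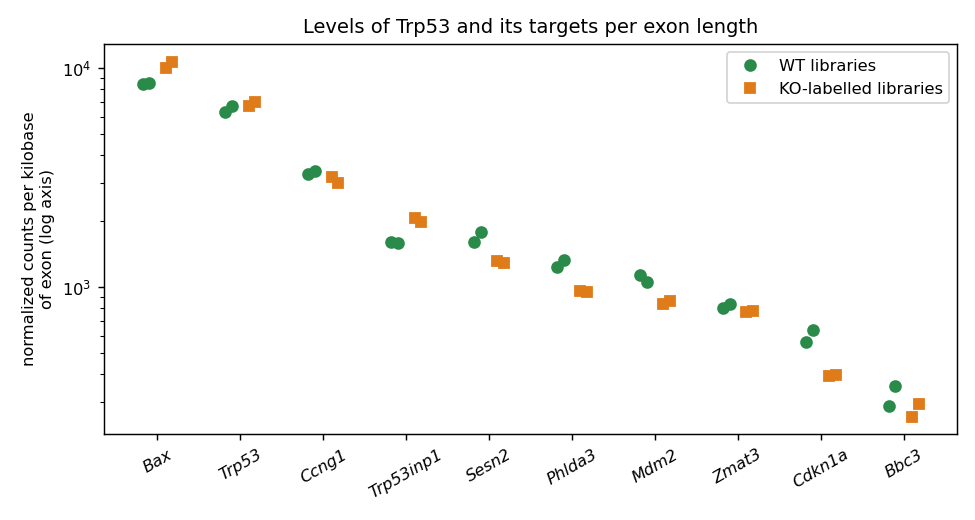
Level of each gene in normalized counts per kilobase of exon on a log axis, with 1 point for each of 2 WT and 2 KO-labelled libraries. Genes are ordered by mean level, from *Bax* at 9409 to *Bbc3* at 298, and only *Trp53inp1* and *Sesn2* change places between the groups.

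Among the members, 2 were higher in the KO-labelled libraries at an adjusted p under 0.05 in DESeq2 (*Bax* and *Trp53inp1*), 4 were lower (*Mdm2*, *Cdkn1a*, *Phlda3* and *Sesn2*) and 4 did not pass (*Trp53*, *Ccng1*, *Bbc3* and *Zmat3*). Of all 17710 genes tested, 16.4% were higher and 15.8% were lower by the same rule. Every member had a mean of at least 500 normalized counts, and among the 8775 genes at or over that level, a minimum set after the values were seen, 27% were higher and 20.3% lower. The 2 higher members are thus no larger a share than the well-expressed genes give, and the 4 lower ones are a larger share in a set of only 10. The members' median log2 fold change was -0.163, beside 0.005 for all genes tested. Every change was small. None of the members reached a 2-fold change with an adjusted p under 0.001, in DESeq2 or in edgeR, although 6 had an unadjusted p under 0.05, and 4.51% of all genes passed that stricter rule. The groups did not overlap for 8 of 10 members, against 70.2% of all genes tested. *Bax* lost its call without KO-labelled replicate 2, which left 1 higher member.

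**Figure D2:**
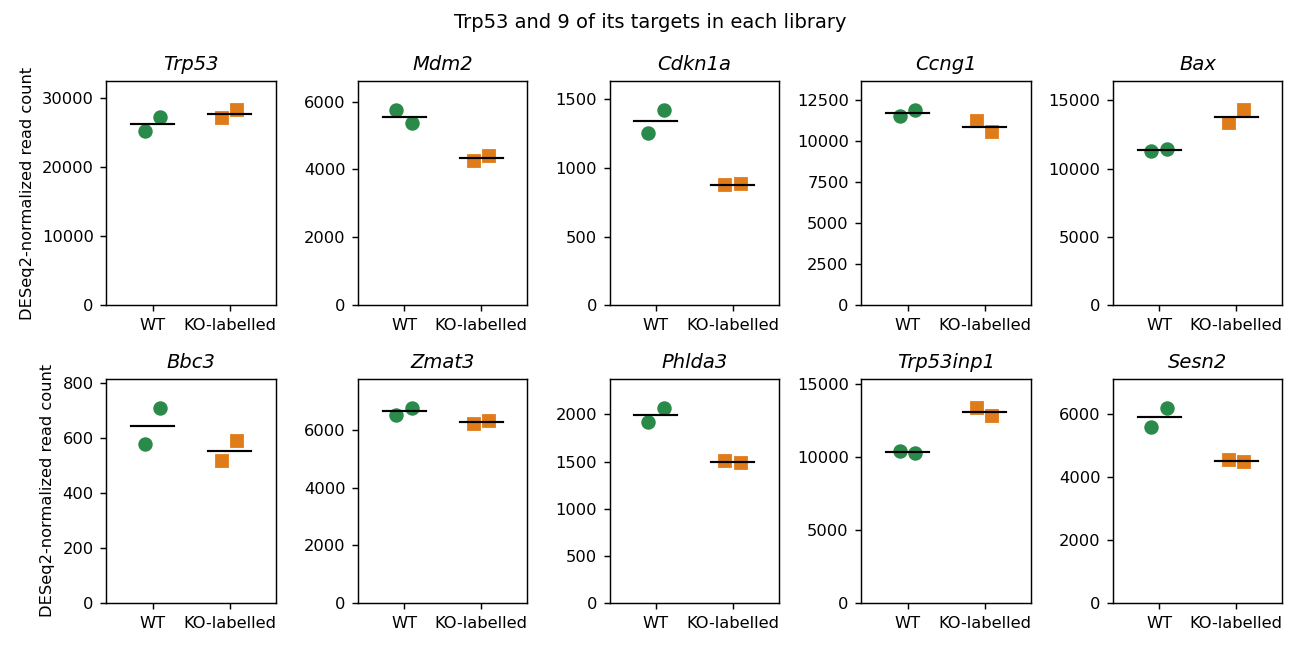
Normalized counts of each gene in each library, 1 panel per gene with its own axis starting at 0, with a point per library and a bar at the mean of each group of 2. WT and KO-labelled points are apart in 8 panels and overlap for *Trp53* and *Bbc3*.

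*Trp53* RNA did not pass the test. The WT libraries held 25314 and 27230 normalized counts, against 27138 and 28274 with the KO label, or 26272 ± 1355 against 27706 ± 803 (SD, n = 2 each). The lower KO-labelled library fell inside the WT range. DESeq2 gave a log2 fold change of 0.08 ± 0.07 (SE; 95% interval -0.057 to 0.210, adjusted p = 0.444). Leaving out single libraries moved it between 0.029 (without WT replicate 1) and 0.13 (without WT replicate 2), and removing chromosome medians turned it to -0.088. *Trp53* (ENSMUSG00000059552.6) spans chr11:69393861-69405375 on the plus strand, and 12% of the 31-base stretches of its exons occur again elsewhere in the genome, so the count is uncertain to that extent.

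*Mdm2*, whose product marks p53 for degradation and which p53 activates in turn, was lower in the KO-labelled cells. Its normalized counts were 5743 and 5356 in WT, and the KO-labelled libraries held 4249 and 4398. Both KO-labelled values lay below both WT values, and the group means were 5550 ± 274 and 4324 ± 105 (SD, n = 2 each), 22.1% apart. On the log2 scale the difference was -0.36 ± 0.08 (SE; 95% interval -0.515 to -0.204, adjusted p = 4.7e-05). *Mdm2* (chr10:117125944-117147814, minus strand) lies on chromosome 10, where the median gene (of those with a mean of at least 50 normalized counts) was at -0.35. With chromosome medians removed, *Mdm2* was at -0.01 (adjusted p = 0.935). This was the highest of 10 alternatives to the DESeq2 fit (another tool, other scalings and filters, a replicate block, single libraries left out), which began at 2.89e-05.

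*Cdkn1a* codes for p21, the inhibitor of cyclin-dependent kinases through which p53 halts cells in G1. It had 1256 and 1419 normalized counts in WT against 872 and 883 with the KO label. The KO-labelled pair lay close together and well below both WT libraries, 878 ± 7.80 against 1337 ± 116 (SD, n = 2 each). The difference was 34.4%, the largest of the members in this fit, with a log2 fold change of -0.61 ± 0.12 (SE; 95% interval -0.846 to -0.370, adjusted p = 5.59e-06). *Cdkn1a* (chr17:29227924-29237667, plus strand) passed in all 10 alternatives, with adjusted p from 1.1e-06 to 0.023. Leaving out single libraries gave log2 fold changes of -0.69 to -0.51, and removing chromosome medians gave -0.47 (adjusted p = 0.000751), less than *Trp53inp1* (0.55) and *Phlda3* (-0.52) in that fit.

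Cyclin G1, the product of *Ccng1*, recruits the phosphatase PP2A to Mdm2 and is activated by p53 in many tissues. *Ccng1* held 11530 and 11851 normalized counts in WT and 11191 and 10520 in the KO-labelled libraries. Both KO-labelled values were under both WT values by a small margin, 10856 ± 474 against 11691 ± 227 (SD, n = 2 each). The log2 fold change of -0.11 ± 0.07 (SE; 95% interval -0.245 to 0.030) did not pass (adjusted p = 0.261), and was -0.060 without KO-labelled replicate 2. *Ccng1* (chr11:40562054-40568813, minus strand) shares chromosome 11 with *Trp53*, and the median log2 fold change there was 0.16. Relative to the chromosome medians *Ccng1* was at -0.27 and passed (adjusted p = 0.000798, the lowest of its alternatives, which reached 0.743).

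*Bax*, whose product forms pores in the outer mitochondrial membrane, had 11317 and 11470 normalized counts in WT and 13330 and 14277 in the KO-labelled libraries. All KO-labelled values exceeded all WT values, 13804 ± 670 against 11394 ± 108 (SD, n = 2 each), a rise of 21.2%. DESeq2 put the log2 fold change at 0.28 ± 0.07 (SE; 95% interval 0.140 to 0.413, adjusted p = 0.000457). The call for *Bax* (chr7:52717065-52722268, minus strand) rested on KO-labelled replicate 2, without which it was 0.23 (adjusted p = 0.0806, over alternatives that began at 7.52e-05).

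*Bbc3*, which codes for the BH3-only protein Puma, was the lowest and least precise member. Its normalized counts were 578 and 709 in WT, and 516 and 590 with the KO label. The groups overlapped, at 643 ± 92.5 and 553 ± 52.1 (SD, n = 2 each), and the libraries within a group differed by up to 0.294 on the log2 scale, the widest spread of any member. The log2 fold change was -0.22 ± 0.16 (SE; 95% interval -0.540 to 0.101, adjusted p = 0.34). It moved to -0.059 without WT replicate 2, to -0.35 without WT replicate 1 and to -0.12 without KO-labelled replicate 1, and passed in none of the 10 alternatives (adjusted p from 0.148 to 0.909). *Bbc3* spans chr7:16894965-16903554 on the plus strand.

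*Phlda3* codes for a small pleckstrin-homology protein that competes with Akt for membrane lipids and so blunts survival signalling. It had 1925 and 2069 normalized counts in WT and 1505 and 1486 in the KO-labelled pair. Each of that pair was lower, 1496 ± 13.7 against 1997 ± 102 (SD, n = 2 each), or 25.1% below. Its log2 fold change was -0.42 ± 0.10 (SE; 95% interval -0.616 to -0.219, adjusted p = 0.000249). The median of chromosome 1, where *Phlda3* lies (chr1:137662696-137665713, plus strand), was 0.10, and against the chromosome medians the gene was at -0.52 (adjusted p = 3.39e-06). Without WT replicate 2 the log2 fold change was -0.36 and the call was lost (adjusted p = 0.0654, the highest of its alternatives).

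*Zmat3*, the gene with the exact response element, codes for a zinc finger protein that binds RNA and acts in splicing and mRNA stability downstream of p53. Its normalized counts were 6527 and 6765 in WT, and 6214 and 6312 with the KO label. The groups did not overlap but lay close, at 6646 ± 168 and 6263 ± 69.0 (SD, n = 2 each). The log2 fold change of -0.09 ± 0.07 (SE; 95% interval -0.228 to 0.057) did not pass (adjusted p = 0.42), and was -0.055 without WT replicate 2 and -0.18 with chromosome medians removed. *Zmat3* (chr3:32233718-32264600, minus strand) did not pass in any of the alternatives (adjusted p from 0.052 to 0.786).

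*Trp53inp1* codes for a nuclear protein that assists the phosphorylation of p53 and also acts in autophagy. It had 10365 and 10269 normalized counts in WT and 13340 and 12824 with the KO label. The KO-labelled libraries were both far above the WT pair, whose values nearly coincided, 13082 ± 365 against 10317 ± 67.9 (SD, n = 2 each), a rise of 26.8%. This gave a log2 fold change of 0.34 ± 0.07 (SE; 95% interval 0.210 to 0.475, adjusted p = 4.18e-06), and the gene passed in all 10 alternatives (adjusted p up to 0.00711). The median for chromosome 4 was -0.21, and *Trp53inp1* (chr4:11083578-11101526, plus strand) was at 0.55 relative to the chromosome medians (adjusted p = 1.89e-14).

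*Sesn2*, on the same chromosome (chr4:132047947-132066416, minus strand), moved the other way. It codes for Sestrin 2, a leucine-binding inhibitor of mTORC1 that is also induced by the integrated stress response. *Sesn2* had 5600 and 6189 normalized counts in WT and 4552 and 4477 in the KO-labelled libraries. Both KO-labelled values were below the WT values, 4515 ± 53.2 against 5894 ± 416 (SD, n = 2 each), 23.4% lower. As a log2 fold change this was -0.39 ± 0.08 (SE; 95% interval -0.544 to -0.226, adjusted p = 1.86e-05). With chromosome medians removed it was -0.18 and no longer passed (adjusted p = 0.0868, against 1.05e-05 for the lowest alternative).

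Between the groups, the chromosome medians thus moved several calls among the members. With those medians removed, 2 members were higher and 3 lower, with a median of -0.179 beside -0.014 for all genes. Of all genes, 2131 were then higher and 2566 lower, against 2909 and 2805 without that step. These numbers also stand behind the lists below in that fit. *Ccng1* entered the lower group, *Mdm2* and *Sesn2* left it, and *Cdkn1a* and *Phlda3* stayed in it. *Bax* stayed higher at 0.18 (adjusted p = 0.0357). *Trp53* changed sign, to -0.088 (adjusted p = 0.38), and passed in neither fit. What the unequal chromosome medians come from was not tested. The exons of the 10 members share no bases with those of another annotated gene.

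**Figure D3:**
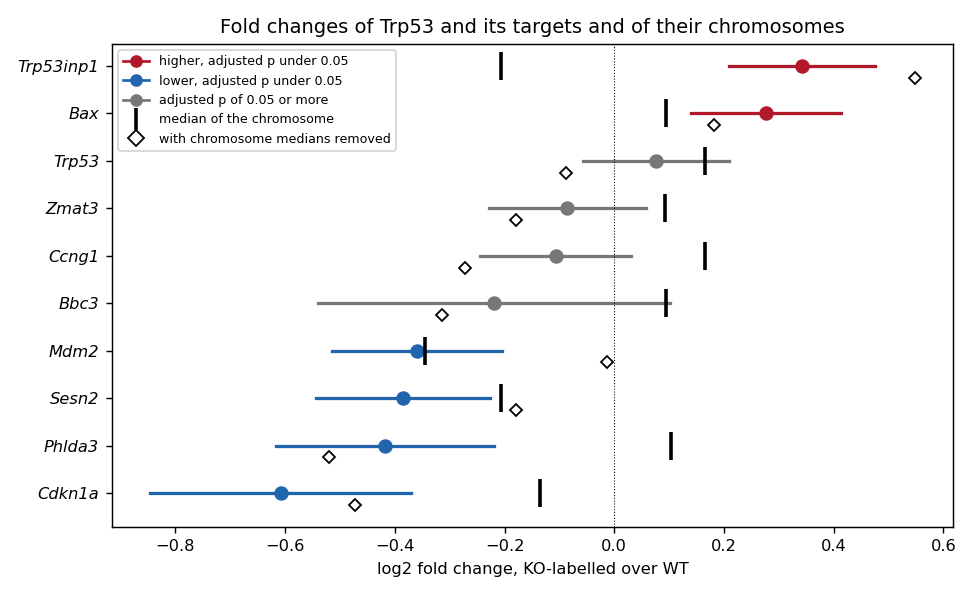
Log2 fold change of each gene, KO-labelled over WT, as a point with its 95% interval, coloured by call, beside the median of its chromosome (vertical tick) and its value with chromosome medians removed (diamond). *Mdm2* sits on the median of chromosome 10 (-0.35), while *Cdkn1a*, *Phlda3* and *Trp53inp1* lie away from the medians of theirs.

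Genes that set p53 levels and activity, a list of 21, had 8 members higher (38.1%) and 4 lower (19%), beside 16.4% and 15.8% of all genes tested and 27% and 20.3% of those averaging 500 or more, with a median log2 fold change of 0.058. *Mdm4*, whose product masks the p53 activation domain, rose by 37.0% (4919 and 4964 to 6841 and 6699 normalized counts, log2 0.45, adjusted p = 1.01e-08). *Atm*, the kinase that signals double-strand breaks to p53, rose from 5572 and 5700 to 7266 and 7667 (log2 0.41, adjusted p = 5.65e-07). *Kat5*, the acetyltransferase Tip60, was higher at 0.36 (adjusted p = 0.00113), a value close to the median of chromosome 19 (0.38).

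The largest decrease in that list, and its 1 change of at least 2-fold at the stricter rule, was in *Cdkn2a*. This locus codes for p16 and, from another reading frame, for Arf, the protein that holds Mdm2 away from p53, and gene-level counts do not separate p16 from Arf. *Cdkn2a* had 526 and 586 normalized counts in WT and 103 and 138 in the KO-labelled libraries. It was 4.62-fold lower (log2 -2.21 ± 0.21 (SE), adjusted p = 3.01e-23) and passed in all 10 alternatives. *Ppp1r13b*, which codes for the p53 cofactor Aspp1, and *Prkdc*, the DNA-dependent protein kinase, were lower at -0.54 (adjusted p = 0.00304) and -0.25 (adjusted p = 0.00976). *Prkdc* passed in only 4 of 10 alternatives and was at -0.29 to -0.19 with single libraries left out. *Kat5*, *Ppp1r13b* and *Prkdc* did not pass with chromosome medians removed (adjusted p = 0.895, 0.33 and 0.949, the highest of 10 alternatives for each). That fit gave 6 higher and 2 lower in this list, of which 4 and 1 also passed without that step. Leaving out WT replicate 2 or KO-labelled replicate 2 brought the higher genes to 4 or 5, and leaving out WT replicate 1, KO-labelled replicate 1 or KO-labelled replicate 2 brought the lower ones to 1, 1 or 2. In *Mdm4* 29.1% of exonic 31-base stretches recur elsewhere in the genome, and 18% of the exonic length of *Kat5* overlaps *Rnaseh2c* on the other strand, so both counts are uncertain.

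Other known p53 targets went both ways. Of 43 symbols 42 were in the annotation and 41 were tested, of which 9 were higher and 8 lower, with a median of 0.049. The shares, 22% and 19.5%, stand beside 16.4% and 15.8% of all genes tested and 27% and 20.3% of those averaging 500 or more. Of 40 protein-coding genes in this list, 8 held an element with up to 1 mismatch (20%) and 1 held an exact one, *Ddit4*, named for that match alone. In this list 4 genes passed the 2-fold rule (4.51% of all genes tested did): *Aen*, *Perp*, *Plk2* and *Steap3*.

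*Aen*, which codes for a nuclease that degrades DNA in apoptosis, fell from 2961 and 2610 normalized counts in WT to 706 and 740 in the KO-labelled libraries (log2 -1.94 ± 0.11 (SE), adjusted p = 2.23e-68). *Perp*, a desmosome protein that also acts in p53-dependent apoptosis, fell from 2318 and 2230 to 725 and 806 (log2 -1.57 ± 0.11 (SE), adjusted p = 4.04e-44). *Plk2*, a polo-like kinase of centriole duplication, fell from 2543 and 2387 to 1127 and 1249 (log2 -1.05 ± 0.10 (SE), adjusted p = 3.86e-22). In these 3 genes the KO-labelled libraries were far below both WT libraries.

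*Steap3*, a ferrireductase of iron uptake, moved the other way, from 1645 and 1810 to 3811 and 3748 (log2 1.13 ± 0.09 (SE), adjusted p = 1.19e-32). *Ei24*, an endoplasmic reticulum protein of autophagy, was higher at 0.47 (adjusted p = 1.43e-07). *Trp53i13* was at 0.50 (adjusted p = 0.0226), a call that reached an adjusted p of 0.282 in its alternatives, and 15.2% of its exonic length overlaps *Abhd15* on the other strand. In *Aen* 20.1% of exonic 31-base stretches recur elsewhere. With chromosome medians removed 6 were higher and 7 lower, of which 4 and 5 also passed without that step. The higher count was sensitive to each library, at 3 or 5 without WT replicate 1 or 2 and at 5 or 2 without KO-labelled replicate 1 or 2, while 7 were lower in each of these fits.

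**Figure D4:**
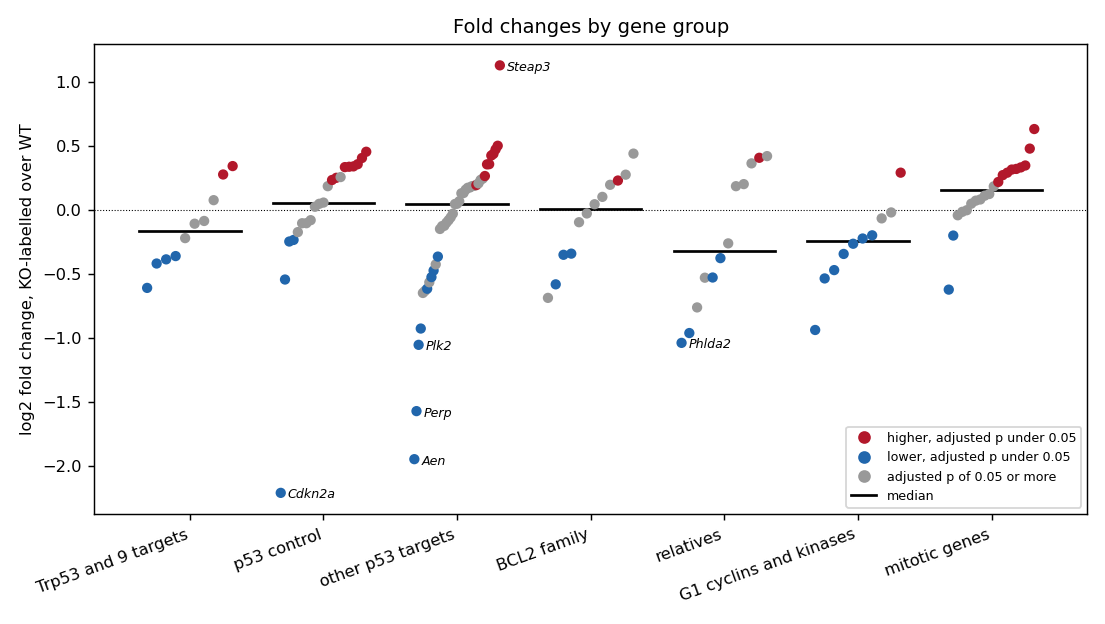
Log2 fold change of every tested gene among the members and in the 6 pathway lists (cell type markers are not plotted), 1 point per gene coloured by call, with a line at the median of the list. Medians run from -0.318 in the relatives of the members to 0.154 in the mitotic genes, and the members' points stay within 1 log2 unit of 0.

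The BCL2 family sets the threshold at which Bax and Bak open mitochondria. Of 12 other genes listed from it, *Bak1* among them, 1 was higher and 3 were lower (median 0.009). These shares of 8.33% and 25% stand beside 16.4% and 15.8% of all genes tested and 27% and 20.3% of those averaging 500 or more. *Bid*, a BH3-only activator of Bax, fell from 2840 and 2654 normalized counts to 1823 and 1850 (log2 -0.58, adjusted p = 8.53e-09), and 17.7% of its exonic length overlaps *Bcl2l13* on the other strand. *Bcl2l11* (Bim, also BH3-only) was lower at -0.35 (adjusted p = 0.00207) and *Bok*, a relative of Bax, at -0.34 (adjusted p = 0.04). *Pmaip1*, which codes for Noxa, also BH3-only, was counted with the other p53 targets and not here. It rose from 5648 and 5799 to 6715 and 7041 normalized counts (log2 0.27, adjusted p = 0.00189). With chromosome medians removed it was at 0.14 and did not pass (adjusted p = 0.177). *Bcl2l1*, which codes for the survival protein Bcl-xL, was higher at 0.23 (adjusted p = 0.0349). *Bcl2l1* did not pass without any one of the 4 libraries, with adjusted p up to 0.391. Without WT replicate 2, KO-labelled replicate 1 or KO-labelled replicate 2, *Bid* alone of the 3 lower genes passed. *Bok* lost its call without any one library (adjusted p from 0.15 to 0.382), and *Bid* and *Bcl2l11* passed without WT replicate 1.

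Among 13 relatives of the members, 12 were tested, with 1 higher and 4 lower (median -0.318), or 8.33% and 33.3% beside 16.4% and 15.8% of all genes tested and 27% and 20.3% of those averaging 500 or more. *Phlda2*, an imprinted relative of *Phlda3* that restrains placental growth, fell from 1245 and 1558 normalized counts in WT to 677 and 690 in the KO-labelled libraries (log2 -1.04 ± 0.14 (SE), adjusted p = 8.03e-13). *Sesn3*, the Sestrin driven by FoxO factors, fell from 684 and 609 to 337 and 327 (log2 -0.96, adjusted p = 9.65e-08). *Cdkn1c*, an imprinted gene that codes for the p21 relative p57, was lower at -0.53 (adjusted p = 0.000867, up to 0.136 with a library left out). *Cdkn1c* (chr7:150644255-150646955) and *Phlda2* (chr7:150687450-150688446) lie close together, so their calls may not be independent. *Zmat2*, a splicing factor gene, was higher at 0.41 (adjusted p = 1.44e-05). Without KO-labelled replicate 1, 2 of the relatives were lower.

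p21 acts on the cyclins and kinases of G1. Of 10 genes for G1 cyclins, their kinases and partners, 7 were lower and 1 was higher (median -0.243), or 70% and 10%, beside 15.8% and 16.4% of all genes tested and 20.3% and 27% of those averaging 500 or more. *Ccnd2* and *Ccnd1*, the D-type cyclins that carry cells out of G1 with Cdk4 and Cdk6, fell from 4733 and 4904 to 2622 and 2416 normalized counts (log2 -0.94, adjusted p = 3.22e-26) and from 9989 and 10267 to 6805 and 7182 (log2 -0.53, adjusted p = 2.2e-12). *Cdk6* was lower at -0.47 (adjusted p = 0.0401, up to 0.411 with a library left out). *Pcna*, the replication clamp that p21 also binds, was higher at 0.29 (adjusted p = 1.07e-04). In *Pcna* 38% of exonic 31-base stretches recur in the genome, and 21.3% of the exonic length of *Ccnd1* overlaps *Oraov1* on the other strand, so both counts are uncertain. With chromosome medians removed 4 were lower, and leaving out WT replicate 1, KO-labelled replicate 1 or KO-labelled replicate 2 left 4, 3 or 4.

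Of 20 mitotic genes, the class that p53 lowers through p21 and the DREAM repressor complex, 9 were higher and 2 lower (median 0.154), or 45% and 10% beside 27% and 20.3% of genes averaging 500 or more, as all 20 did. *Aurkb*, a kinase of chromosome segregation, rose from 4388 and 4373 to 6654 and 6919 normalized counts (log2 0.63, adjusted p = 1.38e-15). *Top2a*, the topoisomerase that untangles sister chromatids, rose from 54559 and 54396 to 77438 and 74409 (log2 0.48, adjusted p = 2.26e-13). *Cdc25c*, a phosphatase that activates Cdk1, was higher at 0.35 (adjusted p = 0.00504), but passed in only 4 of 10 alternatives and lost its call without any one library (adjusted p up to 0.166).

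Against these, *Cdc20*, the activator of the anaphase-promoting complex, fell from 20677 and 21087 to 13379 and 13770 (log2 -0.62, adjusted p = 5.46e-20), though 27.8% of its exonic 31-base stretches recur elsewhere. *Cdk1*, the mitotic kinase, was lower at -0.20 (adjusted p = 0.021) on chromosome 10, and relative to the chromosome medians it was at 0.15 (adjusted p = 0.124, within a range of 0.0157 to 0.368 over its alternatives). With chromosome medians removed 7 mitotic genes were higher and 1 lower. Leaving out WT replicate 2 left 5 higher, and 1 was lower without either WT library or without KO-labelled replicate 1.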

How the data were processed

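Per the methods, libraries were stranded and depleted of ribosomal RNA. The authors mapped paired reads to mm9 with STAR and counted GENCODE vM1 genes with featureCounts. Their deposited table holds these read counts, not normalized. Tool versions, the strand setting and how multimapping reads were treated are not given in the sources used here.

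Groups came from the labels, and 0 columns lacked a sample. Counts of all genes were tested with DESeq2 1.42.0 (R 4.3.3; design of group alone, Benjamini-Hochberg adjustment). A positive log2 value means more RNA with the KO label. Passing means an adjusted p under 0.05. The fits were tested on simulated data. The depth of 36667685 to 61908422 counts makes low genes the least precise.

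Alternatives were edgeR 4.0.16 (quasi-likelihood test), TMM or upper-quartile size factors, a filter of 10 counts in 2 libraries, the replicate number as a block, each library left out, and chromosome medians (genes with a mean of at least 50) removed. The smallest fits, with 1 library in a group, take its spread from the other group.

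Members and lists were chosen with earlier results of these data known. In each list the 3 most changed passing genes per direction with a mean of at least 50 are named, besides *Spen* and the members. Other genes named (the cell type markers, *Bak1*, *Ddit4* and *Pmaip1*) were named after their values were seen. Exon overlaps, repeated 31-base stretches and response elements were read from GENCODE vM1 and the mm9 sequence (NCBIM37).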

Additional observations from a re-analysis of the deposited data

How the results depend on the processing

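Of 100 fold changes (10 members under 10 alternatives) 94 kept their direction and their side of the threshold. With chromosome medians removed *Trp53* turned to -0.088, *Mdm2* and *Sesn2* lost their calls and *Ccng1* gained one, and leaving out 1 library cost *Bax* and *Phlda3* theirs. With the replicate block 2 members were higher and 4 lower, as without it. Same-numbered libraries did not deviate together (correlation -0.01773 over 13310 genes), so the numbers were not taken as pairs. With libraries left out in turn, 1 to 2 members were higher. The same fits gave 4 to 6 higher and 1 to 3 lower for p53 control, 2 to 5 higher for other p53 targets, 0 higher and 1 to 2 lower for the BCL2 family, 2 to 4 lower for the relatives, 3 to 5 lower for G1 genes, and 5 to 7 higher and 1 to 2 lower for mitotic genes. Under the replicate block 2 p53 control genes, 4 G1 genes and 1 mitotic gene were lower and 0 BCL2 genes were higher, and with chromosome medians removed the numbers were 2, 4, 1 and 0. In DESeq2 these BCL2 counts of 0 came with 0 to 1 genes at an unadjusted p under 0.05, and edgeR gave 1 higher gene. Of the relatives 3 were higher in edgeR and 2 with upper-quartile size factors, which left 1 mitotic gene lower. Allowing 1 mismatch, a search added after the data were seen, raised the members with a response element from 1 to 4. The causes were not tested.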
